A study of Homo sapiens with 6 samples.

Results

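The genes described here are 52 factors of ribosome assembly, mostly but not all of the nucleolus, taken by symbol from a table of 60664 genes. All 52 were found and all 52 averaged 1 TPM or more over the 6 libraries (TPM being a transcript level scaled for gene length and library), which made them part of the 14286 genes tested. The members were sorted into 9 groups by role: 3 abundant nucleolar proteins and chaperones, 6 factors of RNA polymerase I, 3 core proteins of box C/D and 4 of box H/ACA snoRNPs (small nucleolar ribonucleoprotein particles), 5 proteins of the PELP1, TEX10 and WDR18 complex with LAS1L and SENP3, 3 of the PeBoW complex, 10 of the small-subunit processome, 8 later small-subunit factors and 10 other large-subunit factors.

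Messenger RNA was sequenced from 67R cells, a line obtained from NCI-H1975, an EGFR-mutant human lung adenocarcinoma line, by stepwise exposure to the EGFR inhibitor ASK120067. Of the 6 libraries, 3 came from cells given a control siRNA (siNC) and 3 from cells given siRNA against BCAT1 (siBCAT1), the cytosolic transaminase of branched-chain amino acids. Both groups share the resistant background, so that the parental line is not part of the comparison. The labels give numbers to the replicates without saying whether they were separate cultures, and the p-values then measure the spread between these libraries only. The study's methods describe a pair of siRNAs against BCAT1 and give the name siBCAT1 to the one called siBCAT1-2; the library labels carry no further detail.

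BCAT1 was at 42.7, 42.2 and 29.8 TPM in siNC and at 8.8, 7.1 and 8.0 TPM in siBCAT1 cells (log2 fold change -2.12, adjusted p = 0.000272). The groups did not overlap, and the targeted gene was low in each library labelled siBCAT1. The deposited values hold no read depth, and the TPM sums lay between 992512 and 995593. Of the epithelial carcinoma markers, KRT8 and KRT18 were abundant and NKX2-1 was at or near 0. KRT8 and KRT18 had log2 fold changes of -0.47 and -0.33 (limma, adjusted p = 0.0102 and 0.0234). KRT19 and the cadherin CDH1 fell by 1.41 and 2.41 on the log2 scale (adjusted p = 0.000418 and 0.00881), whereas EPCAM was at 0.91 to 1.55 TPM in siNC and 1.96 to 2.61 TPM in siBCAT1 cells and did not pass the test (adjusted p = 0.0732). The summed level of the epithelial list was 1702 to 1990 TPM in siNC and 1231 to 1436 TPM in siBCAT1 cells, and the summed fibroblast markers were at 252.5 to 273.5 and 188.9 to 244.5 TPM, with DCN and LUM at 0 in all 6 libraries. Both summed levels were lower in each siBCAT1 library than in each siNC library. The leukocyte markers summed to 1.19 to 1.69 TPM in siNC and 0.92 to 1.32 TPM in siBCAT1 cells, mostly from CD14, with CD3E and PTPRC at or near 0. The endothelial markers summed to 0.74 to 0.88 TPM in siNC and 0.90 to 2.61 TPM in siBCAT1 cells, nearly all from CDH5, with PECAM1 and VWF at or near 0. The part of these lists in the results below was not tested. In bulk RNA, fewer cells of a type and less RNA per cell cannot be told apart.

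Ribosomes are assembled in the nucleolus, around the repeated ribosomal RNA genes that RNA polymerase I transcribes. The long precursor is modified by snoRNPs, of which the box C/D class carries out ribose methylation and the box H/ACA class converts uridine to pseudouridine. It is then folded, cut and joined to ribosomal proteins by successive sets of assembly factors for the small and the large subunit, most of which leave before the subunits reach the cytoplasm. Genes for these factors are known targets of the transcription factor MYC, and the process takes up much of the energy of a growing tumor cell.

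The E-box CACGTG, a palindrome that MYC and related factors bind, is shown first because it was, of 4 promoter words searched, the one whose share differed most between the members and all genes. Promoter windows of 250 bases before to 50 bases after the gene start, from RefSeq on GRCh38.p14, were at hand for 46 of the 52 members, and none was for NOLC1, TCOF1, NOP58, BOP1, RRP12 and RRP1B. CACGTG was present in 18 of the 46 windows (39.13%), against 10.2% of the 9975 windows of genes tested and 7.44% of all 27305 windows. The 30 bases around it are printed with the E-box in capitals, for the 4 members with an E-box that rose and the 4 with the highest levels that did not pass the test. Positions are counted from the gene start, with the first transcribed base as 1.
FBL (chr19:39846356-39846385, minus strand): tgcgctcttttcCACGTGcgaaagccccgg
PES1 (chr22:30591880-30591909, minus strand): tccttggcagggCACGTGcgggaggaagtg
NOP14 (chr4:2963374-2963403, minus strand): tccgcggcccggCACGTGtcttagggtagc
EBNA1BP2 (chr1:43172790-43172819, minus strand): gatattgttggcCACGTGggatcgaagacc
NOP10, distal (chr15:34343289-34343318, minus strand): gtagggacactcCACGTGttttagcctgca
NOP10, proximal (chr15:34343130-34343159, minus strand): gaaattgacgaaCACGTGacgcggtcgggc
UTP4 (chr16:69132621-69132650, plus strand): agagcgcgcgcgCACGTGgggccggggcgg
MYBBP1A (chr17:4555340-4555369, minus strand): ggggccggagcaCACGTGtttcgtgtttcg
BYSL (chr6:41921515-41921544, plus strand): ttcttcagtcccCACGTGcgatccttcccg

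The E-box began at base 7 in FBL, base 14 in PES1, base 16 in NOP14, base 28 in MYBBP1A and base 29 in BYSL, downstream of the start, and at base -16 in UTP4 and -11 and -170 in NOP10. In EBNA1BP2 it lay at base -237, near the far end of the window.

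With limma, 15 of the 52 members were higher in siBCAT1 cells at an adjusted p under 0.05, and 0 were lower. The remaining 37 did not pass the test. Of all genes tested, 16.7% were higher and 10.4% lower by the same rule, and among the 6645 genes within the members' range of levels 24.2% were higher. At 0.01, 7 of the 52 members were higher, against 1097 of all 14286 genes (7.68%). The members' share of 28.85% at 0.05 was nearer to that of genes at like levels than to that of all genes. At an unadjusted p under 0.05, 1 member, NOP10, was lower. Counted by libraries, the groups did not overlap for 24 of the 52 members, with siBCAT1 higher in 23 and lower in 1. Of all 14286 genes, 3727 (26.1%) and 2566 (18.0%) did not overlap in these directions. Of the 6645 genes at like levels, 2279 were higher and 1210 lower without overlap.

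The members' median log2 fold change was 0.17, against 0.04 over all genes and 0.07 over the 6645 genes within the members' range of levels. The single values ran from -0.15 to 2.29. Of the 52, 44 lay above 0 and 8 below. Above 0 were also 7771 of all 14286 genes and 3942 of the 6645 at like levels. NOLC1 stood far above the rest, and TCOF1 was next. Without NOLC1 the counts were 14 of 51 with a median of 0.17, and without both genes 13 of 50 with a median of 0.16. A median over 52 genes can hardly move when 2 are left out, so this says little about the other members. Beyond this pair no log2 fold change exceeded 0.67.

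**Figure D1:**
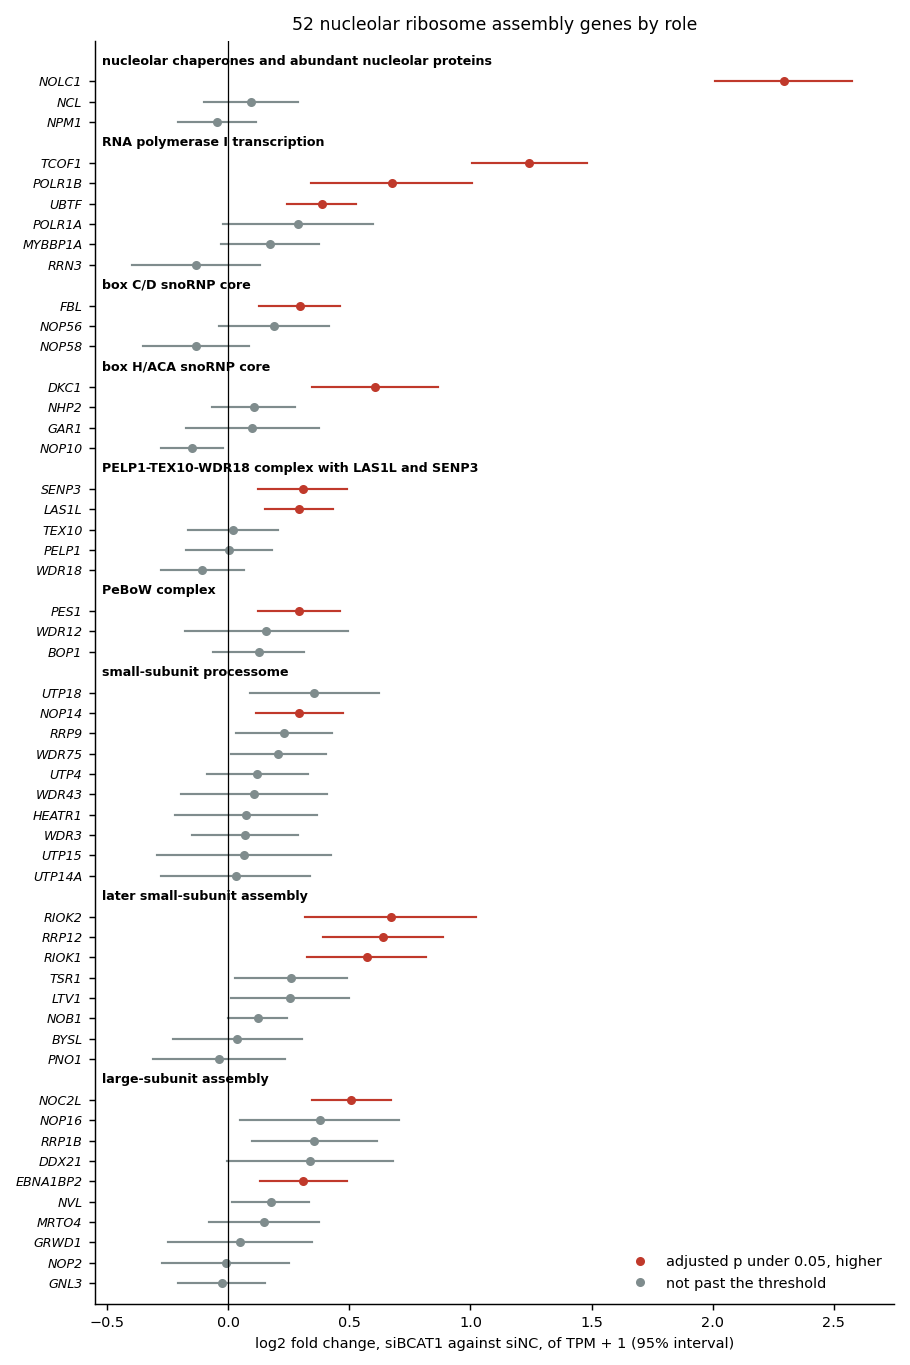
Log2 fold change (siBCAT1 against siNC, of TPM + 1) of the 52 members by role, as points with 95% intervals from limma. Red marks the 15 members with an adjusted p under 0.05. NOLC1 at 2.29 and TCOF1 at 1.24 stand apart from the other members, which lie between -0.15 and 0.67.

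NOLC1 encodes a heavily phosphorylated nucleolar chaperone that binds both classes of snoRNP and RNA polymerase I. It was at 42.9, 47.3 and 33.4 TPM in siNC and at 212, 201 and 198 TPM in siBCAT1 cells. The 3 libraries of each group lay close together, and the groups far apart. Its log2 fold change was 2.29 (95% interval 2.01 to 2.58, adjusted p = 0.000138), rank 20 among the rises of all 14286 genes tested. Among the 52 members it stood at place 34 by its siNC mean and at place 9 by its siBCAT1 mean.

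The other abundant nucleolar proteins showed no such rise. Nucleophosmin, NPM1, a histone chaperone and a main component of the nucleolus, had the highest level of all members. It was at 1492, 1749 and 1480 TPM in siNC and at 1470, 1545 and 1542 TPM in siBCAT1 cells, with a log2 fold change of -0.05 (95% interval -0.21 to 0.11, adjusted p = 0.651). Nucleolin, NCL, which binds ribosomal RNA precursors, was at 679, 835 and 682 TPM against 758, 774 and 798 TPM. Its log2 fold change of 0.09 had an interval of -0.10 to 0.29 (adjusted p = 0.444). For both genes the groups overlapped, and siNC replicate 2 was the highest library of the 6.

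Of the 6 factors of RNA polymerase I transcription, 3 rose. TCOF1 encodes treacle, a nucleolar partner of RNA polymerase I and of NOLC1 that is mutated in Treacher Collins syndrome. It was at 24.96, 30.42 and 25.23 TPM in siNC and at 62.8, 60.9 and 70.8 TPM in siBCAT1 cells, and no library overlapped. The log2 fold change was 1.24 (95% interval 1.01 to 1.48, adjusted p = 0.000406). The ratio of TCOF1 to NOLC1 TPM was 0.660 ± 0.0874 in siNC and 0.319 ± 0.0335 in siBCAT1 cells (SD, n = 3 each), since NOLC1 rose more.

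POLR1B, the second-largest subunit of the polymerase, was at 12.9, 15.3 and 10.9 TPM in siNC and at 23.8, 18.8 and 21.3 TPM in siBCAT1 cells (log2 fold change 0.67, adjusted p = 0.0131). UBTF, which binds the ribosomal gene promoter and keeps these genes open, was at 38.6, 40.3 and 39.3 TPM against 51.9, 52.5 and 50.9 TPM (log2 fold change 0.39, adjusted p = 0.00419). POLR1A, the catalytic subunit, was at 29.02, 29.05 and 21.83 TPM against 36.3, 29.5 and 31.9 TPM. The groups did not overlap, but its log2 fold change of 0.29 did not pass the test (adjusted p = 0.152). The TPM ratio of POLR1B to POLR1A was 0.490 ± 0.0419 in siNC and 0.653 ± 0.0148 in siBCAT1 cells (SD, n = 3 each).

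RRN3, which brings the polymerase to the promoter in growing cells, was at 32.8, 37.1 and 27.3 TPM in siNC and at 28.6, 30.1 and 28.9 TPM in siBCAT1 cells. Its log2 fold change of -0.13 was within the spread (adjusted p = 0.418). Its 4 pseudogenes in the table summed to 2.16 TPM. MYBBP1A, a nucleolar protein bound to the polymerase, had the highest level of the group, at 122, 150 and 126 TPM against 142, 151 and 155 TPM (log2 fold change 0.17, adjusted p = 0.184). The initiation factor thus stayed within its spread while the polymerase subunit POLR1B and the promoter factor UBTF rose.

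Of the 3 core proteins of the box C/D particle, FBL passed the test. FBL encodes fibrillarin, the methyltransferase, and was at 258, 270 and 272 TPM in siNC and at 330, 298 and 356 TPM in siBCAT1 cells (log2 fold change 0.29, 95% interval 0.13 to 0.46, adjusted p = 0.0219). Its scaffold partner NOP56 was at 423, 499 and 397 TPM against 459, 541 and 500 TPM (log2 fold change 0.19, adjusted p = 0.192). The other scaffold, NOP58, had a log2 fold change of -0.13 (adjusted p = 0.327). The differences between these partners were not tested, and the intervals of FBL and NOP56 (-0.04 to 0.41) overlapped.

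Of the 4 core proteins of the box H/ACA particle, DKC1 passed the test. DKC1, the pseudouridine synthase dyskerin, which is mutated in dyskeratosis congenita and is also a part of telomerase, was at 109, 142 and 105 TPM in siNC and at 178, 185 and 177 TPM in siBCAT1 cells. Its log2 fold change was 0.61 (95% interval 0.34 to 0.87, adjusted p = 0.00791), and the groups did not overlap. NHP2, the core protein with the highest level, was at 502, 609 and 572 TPM against 587, 600 and 616 TPM (log2 fold change 0.10, adjusted p = 0.329). GAR1 had a log2 fold change of 0.10 (adjusted p = 0.572).

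NOP10, the smallest core protein, was at 472, 484 and 513 TPM in siNC and at 417, 455 and 452 TPM in siBCAT1 cells. It was the only member whose siBCAT1 libraries all lay below its siNC libraries, but its log2 fold change of -0.15 did not pass the test (adjusted p = 0.0845), and it passed as lower in 4 of 14 alternative fits. The promoter of NOP10 held 2 of the E-boxes printed above. The ratio of DKC1 to NHP2 TPM was 0.212 ± 0.0250 in siNC and 0.299 ± 0.0109 in siBCAT1 cells, and that of DKC1 to GAR1 was 2.32 ± 0.222 and 3.30 ± 0.135 (SD, n = 3 each). For neither ratio did the libraries of the groups overlap.

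In the PELP1 complex, which acts on the large-subunit precursor, 2 of 5 members rose. LAS1L, the endonuclease that cuts an internal spacer of the precursor, was at 110, 123 and 114 TPM in siNC and at 142, 140 and 143 TPM in siBCAT1 cells (log2 fold change 0.29, adjusted p = 0.0124). SENP3, the SUMO protease of the complex, was at 91.0, 76.0 and 79.7 TPM against 103, 98.7 and 103 TPM (log2 fold change 0.31, adjusted p = 0.0261). SENP3 shares 1511 exon bases on the same strand with the annotated readthrough gene SENP3-EIF4A1, so that the split of reads between these genes is uncertain. The scaffold members PELP1, TEX10 and WDR18 had log2 fold changes of 0.0043, 0.02 and -0.11, with overlapping groups.

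Of the PeBoW complex, needed for large-subunit processing, PES1 rose. It was at 336, 396 and 351 TPM in siNC and at 415, 457 and 454 TPM in siBCAT1 cells (log2 fold change 0.29, adjusted p = 0.0239). Its partners BOP1 and WDR12 had log2 fold changes of 0.13 and 0.16 with overlapping groups (adjusted p = 0.293 and 0.456).

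The small-subunit processome, the large particle that forms on the nascent precursor, had 1 riser among 10 members. NOP14 was at 28.9, 29.3 and 29.2 TPM in siNC and at 33.6, 35.7 and 38.7 TPM in siBCAT1 cells (log2 fold change 0.29, adjusted p = 0.0281). The antisense gene NOP14-AS1 overlaps 605 of its exon bases. UTP4, the member with the highest level, was at 159, 194 and 160 TPM against 174, 193 and 189 TPM (log2 fold change 0.12, adjusted p = 0.361). All 10 members had log2 fold changes above 0, with a median of 0.11 and a highest value of 0.35 in UTP18, which did not pass the test (adjusted p = 0.0560).

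Of the 8 later small-subunit factors, 3 rose, and both RIO kinases were among them. RIOK2, an atypical kinase of late small-subunit precursors, was at 10.4, 12.9 and 11.7 TPM in siNC and at 16.4, 23.8 and 17.8 TPM in siBCAT1 cells (log2 fold change 0.67, adjusted p = 0.0169). RIOK1, its relative that acts near the last step, was at 15.6, 17.4 and 13.4 TPM against 23.5, 22.8 and 23.7 TPM (log2 fold change 0.57, adjusted p = 0.00781). RRP12, which takes part in the export of precursors, was at 23.9, 31.2 and 26.3 TPM against 40.8, 42.5 and 44.4 TPM (log2 fold change 0.64, adjusted p = 0.00512).

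NOB1, the endonuclease that makes the final cut of the small-subunit RNA, had the highest level of these factors. It was at 179, 184 and 169 TPM in siNC and at 192, 192 and 195 TPM in siBCAT1 cells (log2 fold change 0.12, adjusted p = 0.126). Its partner PNO1 had a log2 fold change of -0.04 (adjusted p = 0.839). Both kinases and RRP12 passed the test where the nuclease and its partner did not, and the differences between these genes were not tested.

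Among the 10 other large-subunit factors 2 rose. NOC2L was at 121, 140 and 127 TPM in siNC and at 178, 182 and 192 TPM in siBCAT1 cells (log2 fold change 0.51, 95% interval 0.34 to 0.67, adjusted p = 0.00254). EBNA1BP2, with the highest level of the group, was at 245, 296 and 266 TPM against 316, 335 and 346 TPM (log2 fold change 0.31, adjusted p = 0.0240). GNL3, the GTPase nucleostemin, was at 134, 154 and 136 TPM against 139, 147 and 130 TPM, with a log2 fold change of -0.03 (adjusted p = 0.823). RRP1B, NOP16 and the helicase DDX21 had log2 fold changes of 0.36, 0.38 and 0.34, larger than that of EBNA1BP2, but they did not pass the test (adjusted p = 0.0505, 0.0869 and 0.130).

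**Figure D2:**
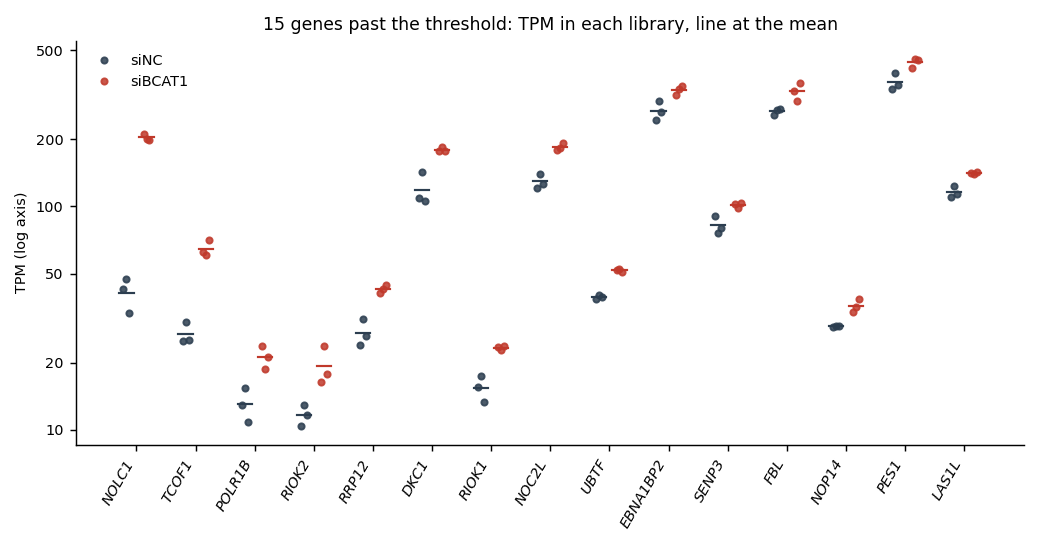
TPM (log axis) of the 15 members past the threshold in each siNC (dark) and siBCAT1 (red) library, with lines at the group means. For each of the 15 genes the 3 siBCAT1 libraries lie above the 3 siNC libraries, by the widest margin for NOLC1, at 198 to 212 against 33.4 to 47.3 TPM.

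In the order of siNC levels NPM1 (1574 ± 152 TPM, SD, n = 3) was followed by NCL (732 ± 89.1), NHP2 (561 ± 54.1), NOP10 (490 ± 21.0) and NOP56 (440 ± 52.6). The libraries of NPM1 and NCL, and of NCL and NHP2, did not overlap, whereas those of NHP2, NOP10 and NOP56 did with their neighbors. The lowest levels were those of RIOK2 (11.7 ± 1.24), POLR1B (13.04 ± 2.25) and RIOK1 (15.47 ± 2.003), and all 3 of these rose. The next lowest, UTP15, HEATR1, WDR3 and NVL, did not pass the test. The siNC mean that sets this order is also the baseline of the fold change. By the mean over the 6 libraries RIOK2 and POLR1B stayed lowest (places 52 and 51). RIOK1 then stood at place 48, above HEATR1 (49) and UTP15 (50). Across the 52 members the log2 fold change had a Pearson correlation of -0.12 with the log2 level, 0.05 with GC content and 0.25 with log2 length. Without NOLC1 and TCOF1 these were -0.25, 0.06 and 0.23. These are descriptions over genes that share the same 6 libraries. The median GC content of the members was 48.8%, against 48.5% over all genes, and the median length 2484 against 2704 bases.

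**Figure D3:**
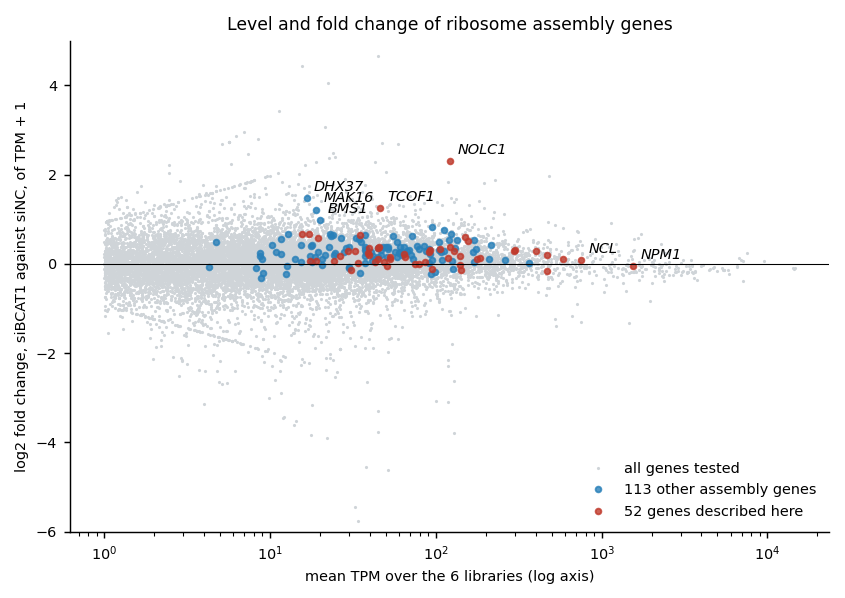
Mean TPM over the 6 libraries (log axis) against log2 fold change (siBCAT1 against siNC, of TPM + 1) for all 14286 genes tested (grey), 113 other ribosome assembly genes (blue) and the 52 members (red). Most red and blue points lie slightly above 0, and NOLC1 at 2.29 is the highest of them.

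Among siNC libraries replicate 2 stood apart for these genes. It was the highest of the 3 for 45 of the 52 members, and its median deviation from the siNC mean was 0.18 on the log2 scale, against -0.0012 over all genes. The 3 siBCAT1 libraries had median differences from the siNC mean of 0.17, 0.19 and 0.19, so that siNC replicate 2 lay about as high as the siBCAT1 libraries for the typical member. The mean log2(TPM + 1) over the 52 members was 6.14, 6.37 and 6.13 in siNC and 6.45, 6.49 and 6.46 in siBCAT1 cells. Without NOLC1 it was 6.16, 6.38 and 6.15 against 6.43, 6.47 and 6.44.

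Without siNC replicate 2, a choice among the leave-outs of every library, 26 members passed as higher and the median was 0.25. NCL, MYBBP1A, NOP56 and DDX21 were among the 12 gained (adjusted p = 0.0182, 0.0239, 0.0451 and 0.00752), and SENP3 was lost. Without siNC replicate 1, siNC replicate 3 or siBCAT1 replicate 3 the count was 9, and it was 11 without siBCAT1 replicate 1 or 2. The count also fell to 10 with median-ratio scaling or with no filter on low values, and to 12 with quantile normalization or GC and length correction. The count of members past the threshold therefore depended on the libraries, the scaling and the filter, while NOLC1 and TCOF1 passed each time. Over all genes, median-ratio scaling gave 1957 higher and 1802 lower, against 2382 and 1483 as deposited. No filter gave 1607 of all genes higher, quantile normalization 2042 and GC and length correction 2217. Without siNC replicate 2, 2276 of all genes were higher, and without any other single library 1435 to 1592.

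**Figure D4:**
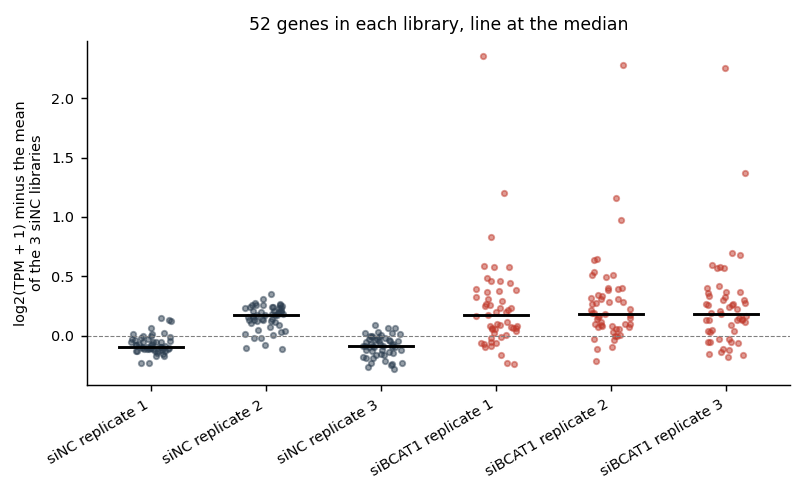
Log2(TPM + 1) minus the mean of the 3 siNC libraries for the 52 members in each library (points), with lines at the medians. The line of siNC replicate 2 lies at 0.18, level with the siBCAT1 libraries at 0.17 to 0.19, and above those of the other siNC libraries, and the isolated upper points in siBCAT1 are NOLC1.

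Under all 14 alternatives of filter, pseudocount, scaling, block and left-out library, 7 members passed as higher: NOLC1, TCOF1, DKC1, NOC2L, RIOK1, RRP12 and UBTF. They are the same 7 that had an adjusted p under 0.01 in the main limma fit. The alternatives reuse the same libraries, and the share of all genes that passed in each of them was not counted. LAS1L passed in 12, with median-ratio scaling and quantile normalization as exceptions (adjusted p = 0.0502 and 0.0604). POLR1B missed the threshold without siNC replicate 1, siBCAT1 replicate 1 or siBCAT1 replicate 3 (adjusted p = 0.0591, 0.0582 and 0.0527). RIOK2 missed it without siNC replicate 1 or siNC replicate 3 (adjusted p = 0.0769 and 0.0624) and with no filter on low values (0.0552).

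The 5 other calls were less steady, with changes near 0.3 on the log2 scale. FBL and EBNA1BP2 passed in 6 of the 14 alternatives, and NOP14, PES1 and SENP3 in 7. FBL was lost without siNC replicate 1 or 3 or siBCAT1 replicate 1 or 3 (adjusted p between 0.0605 and 0.0846), and EBNA1BP2 without any library but siNC replicate 2 (0.0523 to 0.0855). NOP14 and PES1 were lost without siNC replicate 1 or 3 or siBCAT1 replicate 2 or 3 (0.0703 to 0.0798 and 0.0843 to 0.0888). SENP3 was lost without any library but siNC replicate 1 (0.0523 to 0.0846). With all libraries, FBL, EBNA1BP2 and PES1 were also lost with no filter, median-ratio scaling or GC and length correction, FBL also under that correction with the replicate block, NOP14 with median-ratio scaling, quantile normalization or GC and length correction, and SENP3 with no filter or quantile normalization. In no alternative did these genes change direction.

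The other genes of the pathway, 113 assembly factors that are not members, gave a higher share of rises. With limma 51 (45.13%) were higher and 0 lower, and 2, DDX47 and ZNHIT6, were lower at an unadjusted p under 0.05. Of all genes tested 16.7% were higher and 10.4% lower, and of the 6645 genes within the members' range of levels 24.2% were higher. The median of the 113 was 0.27 on the log2 scale, against 0.04 over all genes. Above 0 lay 100 of the 113, and 7771 of all 14286 genes. The count of the 113 that were higher was 67 without siNC replicate 2 and 24 to 27 without any other library. Of all genes, 2276 and 1435 to 1592 were higher in these fits. By role, 4 of 11 polymerase I factors, 19 of 43 small-subunit factors, 23 of 49 large-subunit factors and 5 of 10 snoRNP assembly factors were higher. The largest rise was that of DHX37, a helicase of the small-subunit processome, at 7.53, 11.2 and 6.51 TPM in siNC and 22.2, 27.9 and 24.2 TPM in siBCAT1 cells (log2 fold change 1.48, adjusted p = 0.00189). MAK16, a large-subunit factor, had a log2 fold change of 1.22 (adjusted p = 0.00172), and BMS1, a GTPase of the processome with pseudogene copies that may share its reads, 0.97 (adjusted p = 0.000980). These genes were quoted by size among a list written with earlier results of the data known.

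MYC itself was at 514, 517 and 570 TPM in siNC and at 689, 637 and 839 TPM in siBCAT1 cells (log2 fold change 0.43, adjusted p = 0.0209). The groups did not overlap, but the call was lost without siNC replicate 1, 2 or 3 or siBCAT1 replicate 1 (adjusted p = 0.0907, 0.0599, 0.0502 and 0.0623), with no filter on low values (0.0741) and with median-ratio scaling (0.0639). Among members with a promoter window, 4 of the 12 that rose held an E-box, as did 14 of the 34 that did not pass. The median log2 fold change was 0.13 with the E-box and 0.18 without it. The E-box had a higher share among the members than among all genes, and no higher share among the members that rose than among the rest.

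Other promoter words were searched on both strands. CCGGAAG, a core bound by ETS factors, was present in 39.13% of the members' windows and 20.4% of those of genes tested, and GGGCGG, a GC box, in 71.7% and 70.8%. The palindromic motif of the factor NRF1 was present in 4 windows (8.70%, against 2.42%), those of DKC1, MYBBP1A, NOB1 and UTP18. A match is a description of these letters and not a bound site.

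In the transcripts, 3 short words that could pair with an siRNA were counted: AGACAAT and TTGAGCA, which lie near the 3′ ends of the target sites of siBCAT1-1 and siBCAT1-2 and pair with the seeds of these siRNAs, and TCGGAGA. The sequence that the study prints for its control shRNA holds the reverse complement of TCGGAGA, but the sources used here give no sequence for the control siRNA of the siNC libraries, so that whether the word pairs with it is unknown. TCGGAGA was picked in an earlier analysis of these same libraries, where genes holding it in the untranslated 3′ end tended to rise, and its counts support nothing on their own. TCGGAGA was present in the principal transcripts (GENCODE 29) of 12 of the 52 members (23.08%), against 11.1% of 11823 genes. Of these 12, 7 rose: NOLC1, TCOF1, POLR1B, RIOK2, NOC2L, UBTF and NOP14. Of the 40 without it 8 rose, and the medians were 0.34 and 0.15. These counts are over whole transcripts. In the untranslated 3′ end alone, 2 members held the word, NOLC1 and NOP10 (3.85%, against 1.86% of the 11823 genes), and of these NOLC1 rose. The other risers listed held it in the coding part or the untranslated 5′ end.

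The site in NOLC1 lies in the untranslated 3′ end of its transcript and those in TCOF1 in the coding part, 3 in number. They are printed with the word in capitals because these were the members with the largest rises.
NOLC1 (GRCh38 chr10:102162293-102162322, plus strand): aagggtgatgaTCGGAGActacttactttc
TCOF1, site 1 (GRCh38 chr5:150364190-150364219, plus strand): ccatcagcaccTCGGAGAgctcggaagagg
TCOF1, site 2 (GRCh38 chr5:150375827-150375856, plus strand): ccatggacaacTCGGAGAgcagcgaggagt
TCOF1, site 3 (GRCh38 chr5:150387999-150388028, plus strand): aggcccgagccTCGGAGAgcacagccagga

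NOP10 also held the word in its untranslated 3′ end and did not rise. Over all genes with a principal transcript, 27.95% with the word and 17.0% without it were higher, and over the 113 other assembly genes 10 of 13 with it and 41 of 100 without it. Transcripts of members with the word were longer, with a median of 3927 against 2464 bases. AGACAAT, the word of siBCAT1-1, was present in 8 members, of which 1, RIOK1, rose, against 14 of the 44 without it. Over all genes 10.47% with it and 20.02% without it were higher. TTGAGCA was present in 11 members, of which 1, POLR1B, rose, against 14 of the 41 without it, and over all genes the shares were 15.87% and 18.88%. The members' median log2 fold changes were 0.175 with and 0.172 without TTGAGCA, and 0.11 with and 0.18 without AGACAAT. Over all genes, transcripts with these words were longer as well, with medians of 4815 against 2790 bases for AGACAAT and 4616 against 2775 for TTGAGCA. DKC1, RRP12 and LAS1L held none of the 3 words and rose. The part of these words in the results was not tested.

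**Figure D5:**
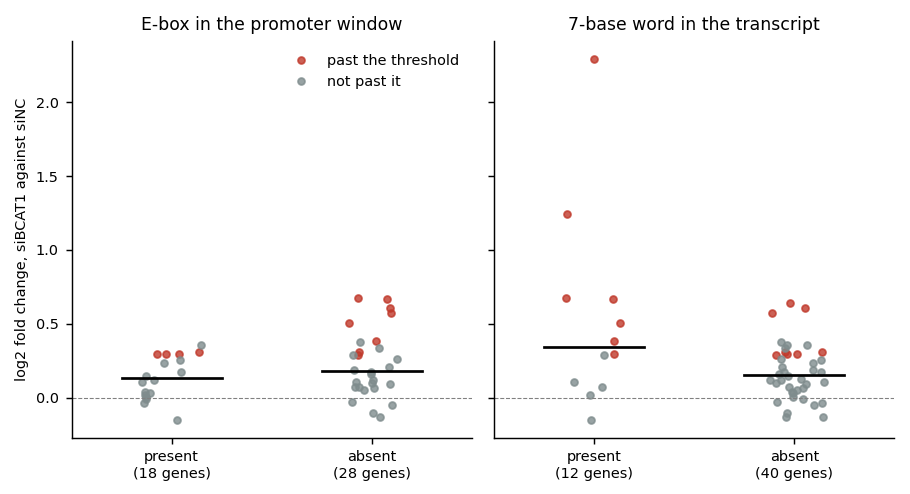
Log2 fold change (siBCAT1 against siNC) of members with and without the E-box in the promoter window (left, 46 members) and the 7-base word in the transcript (right, 52 members), red where past the threshold, with lines at the medians. The medians are 0.13 with and 0.18 without the E-box, and 0.34 with and 0.15 without the word, where the 2 upper points are NOLC1 and TCOF1.

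Several members carry snoRNA genes in their introns, from which the snoRNAs are cut. By GENCODE 29, 7 of the 52 (NOP56, NOP58, NCL, GNL3, WDR43, TSR1 and DKC1) enclosed 25 annotated snoRNA genes on their strand. Of these hosts DKC1 rose, and their median log2 fold change was 0.10, against 0.18 in the other 45 members, of which 14 rose. Exons of 28 members overlapped another annotated gene, on the same strand in 5 and on the opposite strand in 24. Among the members that rose these were SENP3 on the same strand and EBNA1BP2, NOC2L, NOP14, PES1, RIOK1, RIOK2, RRP12 and UBTF on the opposite strand, and since the strand setting of the counting is not known, reads of such pairs cannot be told apart. Exons of NOLC1 and TCOF1 overlapped none. NPM1 has 49 pseudogenes in the table, which summed to 5.80 TPM.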

How the data were processed

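RNA-seq libraries of 67R cells (3 siNC, 3 siBCAT1; groups from the labels) were prepared with a stranded poly(A) kit. The authors controlled read quality (fastp), mapped with HISAT2 and assembled with StringTie on GRCh38; versions, annotation and strand setting are not given in the sources used here. The deposited values were read as TPM from their sums and the gene length beside them; they are rounded to 2 decimals and hold no depth, so that counting error could not be separated. All 6 value columns matched a label.

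Differences were tested with limma 3.58.1 (R 4.3.3; two-sided moderated test, eBayes with a mean-variance trend) on log2(TPM + 1), in the 14286 genes that averaged 1 TPM or more. P-values were adjusted by Benjamini-Hochberg over these genes (threshold 0.05). Fold changes are on that scale, which understates those of low genes. An exact permutation test of 3 against 3 libraries cannot go below p = 0.1 and was not used. The fit was tested on simulated data. Alternatives were no filter, an average of 5 TPM or more, a pseudocount of 0.1, median-ratio scaling, quantile normalization, loess correction for GC content and length (span 0.5), a replicate block, that block with the correction, each library left out, leaving out NOLC1, and a threshold of 0.01.

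The members and lists were chosen with earlier results of these data known, so that no set test was run. Named with full values were NOLC1, in each role group the 2 largest rises and 2 largest falls past the threshold and the member with the highest level, and NCL, NPM1, FBL, POLR1A, POLR1B, UBTF, RRN3, TCOF1, DKC1 and GNL3; of other assembly genes the 3 largest rises and falls past the threshold; and BCAT1 and MYC. RIOK1 and NOP10 were given in full after their values were seen. NOPCHAP1 of the other assembly genes was matched under its older symbol.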

Additional observations from a re-analysis of the deposited data

How the results depend on the processing

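The members' median stayed above 0 under each alternative run, from 0.099 under quantile normalization to 0.25 without siNC replicate 2, and BCAT1 fell in each, from -2.28 to -2.03 over the left-out libraries. Leaving out single libraries moved the number of members higher from 9 to 26, with 0 lower in each, other assembly genes higher from 24 to 67 and lower from 0 to 1, and all genes higher from 1435 to 2276 and lower from 796 to 1430. At an adjusted p under 0.01 there were 7 members higher, where 7.68% of all genes were. With no filter on low values, 32 other assembly genes were higher and 960 of all genes lower, as 31860 genes were then tested. Members lower numbered 1 under the replicate block, quantile normalization and GC and length correction (NOP10 each time) and 2 under that correction with the replicate block (NOP10 and NOP58), and other assembly genes lower 2 under median-ratio scaling, 2 under quantile normalization, 3 under GC and length correction and 4 under it with the block. Of genes near 0, NPM1 turned to 0.0089 and UTP4 to -0.0026 under quantile normalization, and over the left-out libraries NPM1 ran from -0.089 to 0.031 (above 0 without siNC replicate 2) and GNL3 from -0.072 to 0.036 (above 0 without siNC replicate 2 or siBCAT1 replicate 3); the cause was not tested. POLR1A passed under GC and length correction (0.36, adjusted p = 0.0499).

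Deviations of same-numbered libraries from their group means correlated across genes at 0.084, 0.10 and 0.12, each library best with its own number. This is a hint from the data, and the numbers were not taken as pairs. With the replicate block 20 members were higher against 15. TPM values hold no depth, so that counting error stays unknown, and they show shares of the messenger RNA, not amounts per cell.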
